A study of Pseudotaxus chienii and Amentotaxus argotaenia and Torreya grandis with 9 samples.

Results

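The 31 Trinity components described here each held a single dominating transcript feature per species, and that feature was a different one in each of 3 trees of the yew family. They were chosen from 42956 components by their measured levels. A component had to sum to at least 50 TPM (a length-normalised share of the transcripts in a library, scaled to 1 fixed total) in the mean of each species. In each species 1 feature, called the leader, had to hold at least 80% of that sum, and the 3 leaders had to differ. The 31 components hold 155 of the 88609 features, of which 93 are leaders and 62 lead in no species.

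The libraries were made from fresh twigs, wood and needles together, of plants aged 3 years kept at 25 °C with 12 h of light and 12 h of dark. The 3 libraries of Pseudotaxus chienii carry the label taxol-producing, and the 3 libraries of Amentotaxus argotaenia and the 3 of Torreya grandis the label non-taxol producing. Only 1 species has the producing label, so phenotype and species cannot be told apart. No label states whether the libraries of a species are separate trees, so the spread between them, on which every p-value rests, may be technical.

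Trinity builds transcripts from RNA-seq reads without a genome. Reads that overlap are sorted into clusters (the DN number of an ID), and a cluster is split into components (the c number). Gene-level features are separated within a component (the g number). Whether the features of 1 component share sequence was not tested. Copies of a gene, and counterparts of a gene in several species, can be placed in 1 component or apart, and an ID does not tell which. Taxol, which yews make from a diterpene precursor, is a drug against cancer; no file pairs these IDs with gene names, so no component is tied to its synthesis here.

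A different leader in each species was the least frequent of 3 patterns among abundant components with clear leaders. Of 1315 components at the floor of 50 TPM in each species, 813 had a leader at 80% or more in every species. The same feature led in all species in 602 of these, 2 features shared the lead in 180, and 3 features did in 31. Of the 602, 193 hold a single feature and could not have changed leader. Only the 420 that hold at least 3 features could have had 3 leaders, and of these 263 had the same leader throughout. In the class of 180, the species with a leader of its own was P. chienii in 161 components, A. argotaenia in 8 and T. grandis in 11.

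The 31 components hold few features each, with 12 holding 3 features, 19 holding more, a median of 4 and a maximum of 11. All 31 lie in different read clusters, and 26 are the only component of their cluster. In TRINITY_DN37436_c1 the other component of the cluster was more abundant than the component itself, at 58.9 TPM in P. chienii, 309 TPM in the A. argotaenia libraries and 1435 TPM in those of T. grandis. Among the 12 components with 3 features, the P. chienii leader was g1, g2 or g3 in 3, 6 and 3 components, the A. argotaenia leader in 6, 4 and 2, and the T. grandis leader in 3, 2 and 7. Gene numbers thus did not belong to 1 species each.

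**Figure D1:**
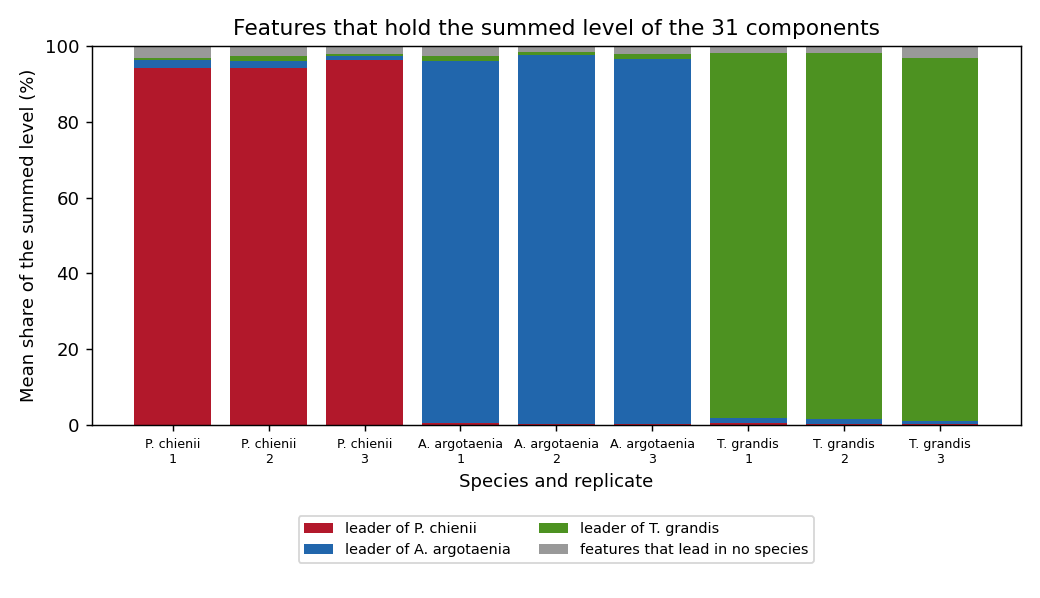
Stacked bars give, for each of the 9 libraries (species and replicate on the x axis), the mean share in percent of the summed level of the 31 components held by the leader of each species and by features that lead in no species. The leader of the library's own species holds between 94.1% and 97.2% in every library; which feature leads was set by the choice of components.

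The leaders held nearly all of the level in most components. Their median share was 98.6% for P. chienii, 99.2% for A. argotaenia and 98.8% for T. grandis, and the lowest shares were 80.6%, 82.7% and 80.6% in the same order. The share was at least 95% in every species in 15 components, of which 11 are among the 12 with 3 features and 4 among the 19 with more. These shares describe the choice itself and carry no test. Averaged over the components, the own leader held 94.8% ± 1.16 of the sum for P. chienii, 96.3% ± 0.813 for A. argotaenia and 96.2% ± 0.263 for T. grandis (SD, n = 3 libraries each).

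The leading feature was then looked up in libraries that had no part in the choice. Each library was left out in turn and the components were chosen from the other 8, which gave 274 pairs of a component and a left-out library. The leader was the same feature in 273 of them (99.6%), and it held at least 80% in 263 (96.0%). The exception was TRINITY_DN49622_c0 in P. chienii replicate 1. By library, the leader held at least 80% in 26 of 29, 27 of 30 and 28 of 29 components for P. chienii replicates 1, 2 and 3, in 31 of 32, 27 of 27 and 31 of 31 for A. argotaenia, and in 31 of 32, 32 of 32 and 30 of 32 for T. grandis. The left-out library shares its species and assembly with the others, so this measures the agreement of replicates and not an independent sampling of trees.

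Leaders were at low levels outside their own species. Each of the 93 leaders was read in both other species, which gave 186 values. Of these, 177 were under 1% of the leader's own level, 4 lay between 1% and 5%, and 5 were at 5% or more, with a median of 0.286%. In all 6 libraries of the other species, 60 leaders were above 0 and 1, TRINITY_DN37436_c1_g2, was listed at 0. Whether reads of 1 species were assigned to features of another was not tested.

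These low levels differed between libraries of the same species. The A. argotaenia leaders stood at a median of 0.0896%, 0.797% and 0.372% of their own level in P. chienii replicates 1, 2 and 3, and at 0.581%, 0.401% and 0.120% in T. grandis replicates 1, 2 and 3. The T. grandis leaders stood at 0.0492%, 0.550% and 0.293% in P. chienii and at 0.285%, 0.103% and 0.341% in A. argotaenia. The P. chienii leaders stood at 0.146%, 0.0980% and 0.186% in A. argotaenia and at 0.286%, 0.221% and 0.0919% in T. grandis. P. chienii replicate 1, A. argotaenia replicate 2 and T. grandis replicate 3 had the lowest value in each of these series. The same 3 libraries listed the most features at 0 in their species, 43114, 35488 and 41328, against 29944 to 37153 in the other 6. Across component sums they also correlated less with the libraries of their own species, at 0.908 to 0.931, against 0.963 to 0.967 between the other two (Pearson's r on log2(TPM + 1), across components, which are not replicates).

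A few leaders were also abundant in another species. TRINITY_DN42175_c0_g1, the P. chienii leader of its component, had 141, 135 and 136 TPM in P. chienii, 90.7, 101 and 109.6 TPM in the A. argotaenia libraries and 69.5, 70.9 and 57.9 TPM in those of T. grandis. The level in A. argotaenia was 73.3% and the level in T. grandis 48.2% of that in P. chienii, while the leaders g6 and g7 held 95.9% and 95.5% of the component there. TRINITY_DN49622_c0_g2, the A. argotaenia leader of its component, had 18.0, 20.4 and 14.6 TPM in P. chienii, 7.74, 381 and 18.2 TPM in the A. argotaenia libraries and 65.5, 60.3 and 49.8 TPM in those of T. grandis. Its mean was 13.0% of the A. argotaenia mean in P. chienii and 43.1% in T. grandis, but without A. argotaenia replicate 2 it was highest in T. grandis. The fifth value at 5% or more belonged to TRINITY_DN36542_c0_g2, a T. grandis leader singled out after its values were seen, with 13.0, 8.84 and 16.0 TPM in A. argotaenia against 124, 114 and 105 TPM in T. grandis, a level of 11.1%.

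Below the leader, the second feature of a component can be a leader of another species or a feature that leads in none. In the 12 components with 3 features it has to be another leader. Among the 19 with more features it was a leader of another species in 8 for P. chienii, 9 for A. argotaenia and 8 for T. grandis, and a feature that leads in no species in 11, 10 and 11. Features that lead in no species averaged 2.62% ± 0.553 of the sum for P. chienii, 2.14% ± 0.485 for A. argotaenia and 2.29% ± 0.658 for T. grandis (SD, n = 3 libraries each), and exceeded 5% in some species in 11 components. The highest such shares were those of TRINITY_DN41236_c0 and TRINITY_DN44835_c2, both at 17.3% in P. chienii. The 62 features themselves were mostly found in 1 species: in 51 (82.3%), 1 species held at least 90% of the 3 species means together, 15 for P. chienii, 18 for A. argotaenia and 18 for T. grandis. The same share was 76.3% for non-leading features of all components at the floor and 60.4% for all features that reached 1 TPM in some species.

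The choice of components favours large differences of the leaders between species, but it sets neither their sign in every case nor their full size. These differences are given here only as a scale for the sums. On log2(TPM + 1) of the species means, the P. chienii leader differed between P. chienii and A. argotaenia by a median of 7.04 (range 0.44 to 9.46), the A. argotaenia leader by -6.49 (-8.14 to -2.87) and the sum by 0.18 (-4.05 to 2.26). For P. chienii over T. grandis the medians were 7.06 for the P. chienii leader, -6.86 for the T. grandis leader and 0.06 for the sum. For A. argotaenia over T. grandis they were 6.59, -6.56 and 0.09. The sums went both ways, so their size without the sign was larger than these medians: its median was 0.70 for P. chienii and A. argotaenia, 0.84 for P. chienii and T. grandis and 0.45 for A. argotaenia and T. grandis. The choice bounded the sums only from below, at the floor. TPM divides by feature length, and lengths are not in the files used here; how far leaders of unequal length move a sum was not tested.

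**Figure D2:**
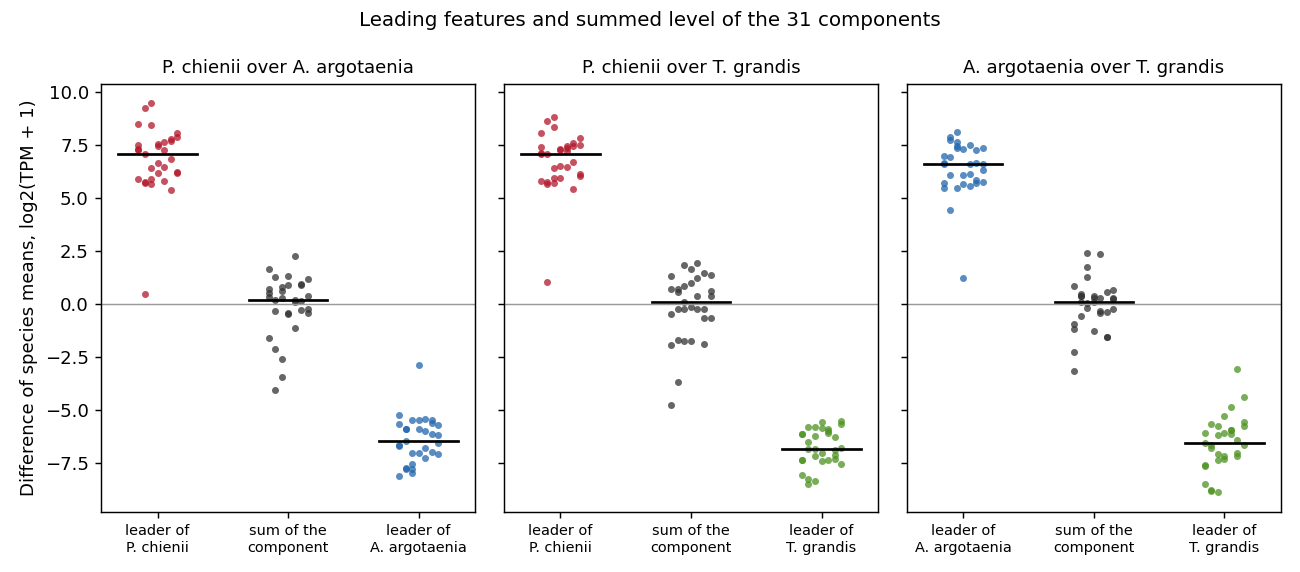
Each panel sets 1 pair of species side by side, with the difference of species means on the log2(TPM + 1) scale on the y axis, and each point is 1 leader or 1 sum of the 31 components, with a black bar at the median. Median leaders lie between 6.59 and 7.06 or between -6.86 and -6.49. The choice favours such differences but does not set their full size. Sums lie around 0 with a range from -4.77 to 2.38 over all pairs.

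The sums spanned 51.6 TPM to 33063 TPM as species means. Over the 31 components the highest species mean was a median of 2.59 times the lowest, with quartiles of 1.54 and 4.15. The ratio was within 2-fold in 12 components (38.7%) and over 5-fold in 5. In the classes with 2 leaders and with 1 leader the median ratio was 2.27 and 2.08, with 42.2% and 46.5% of components within 2-fold. The class with 1 leader includes 193 components of a single feature, at 1.91 and 52.8%. Its 263 components with at least 3 features, as all of the 31 have, stood at 2.14 and 41.1%. All components at the floor had a median of 2.13 and 44.9% within 2-fold. These figures are given without a test, and the 12 components with 3 features had a lower median, 2.25, than the 19 with more, 2.98.

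**Figure D3:**
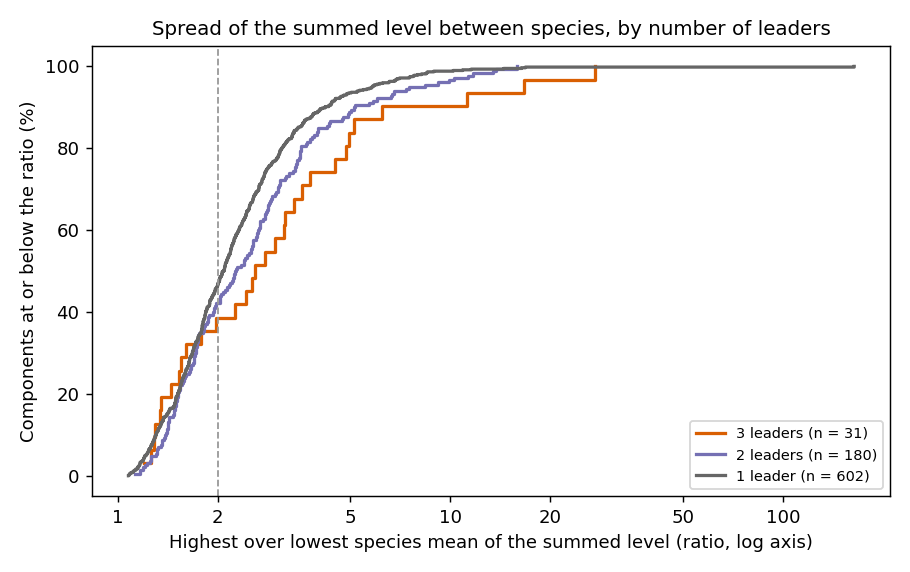
The x axis (log) gives the highest over the lowest species mean of the summed level and the y axis the percentage of components at or below that ratio, with 1 line per number of leaders. At the dashed line of 2-fold the curves stand at 38.7% for 3 leaders, 42.2% for 2 leaders and 46.5% for 1 leader. The line for 1 leader includes components with fewer than 3 features, and without them its value is 41.1%.

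P. chienii had the highest sum in 14 components, A. argotaenia in 8 and T. grandis in 9. Among the 1315 components at the floor the numbers were 466, 384 and 465 in the same order. In 11 components the libraries of neighbouring species in the order overlapped at both steps, and in 8 they overlapped at neither. These steps were not counted for other components, so no trait of the 31 is read from them. Across the 31 components the log2 sums of P. chienii and A. argotaenia correlated at r = 0.725, those of P. chienii and T. grandis at 0.701 and those of A. argotaenia and T. grandis at 0.839. Without the 4 components over 1000 TPM in some species the same values over 27 components were 0.349, 0.274 and 0.486, so they rest largely on those 4. Over the 1315 components at the floor the correlations were 0.615, 0.599 and 0.691. The points share libraries, and no test was made.

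**Figure D4:**
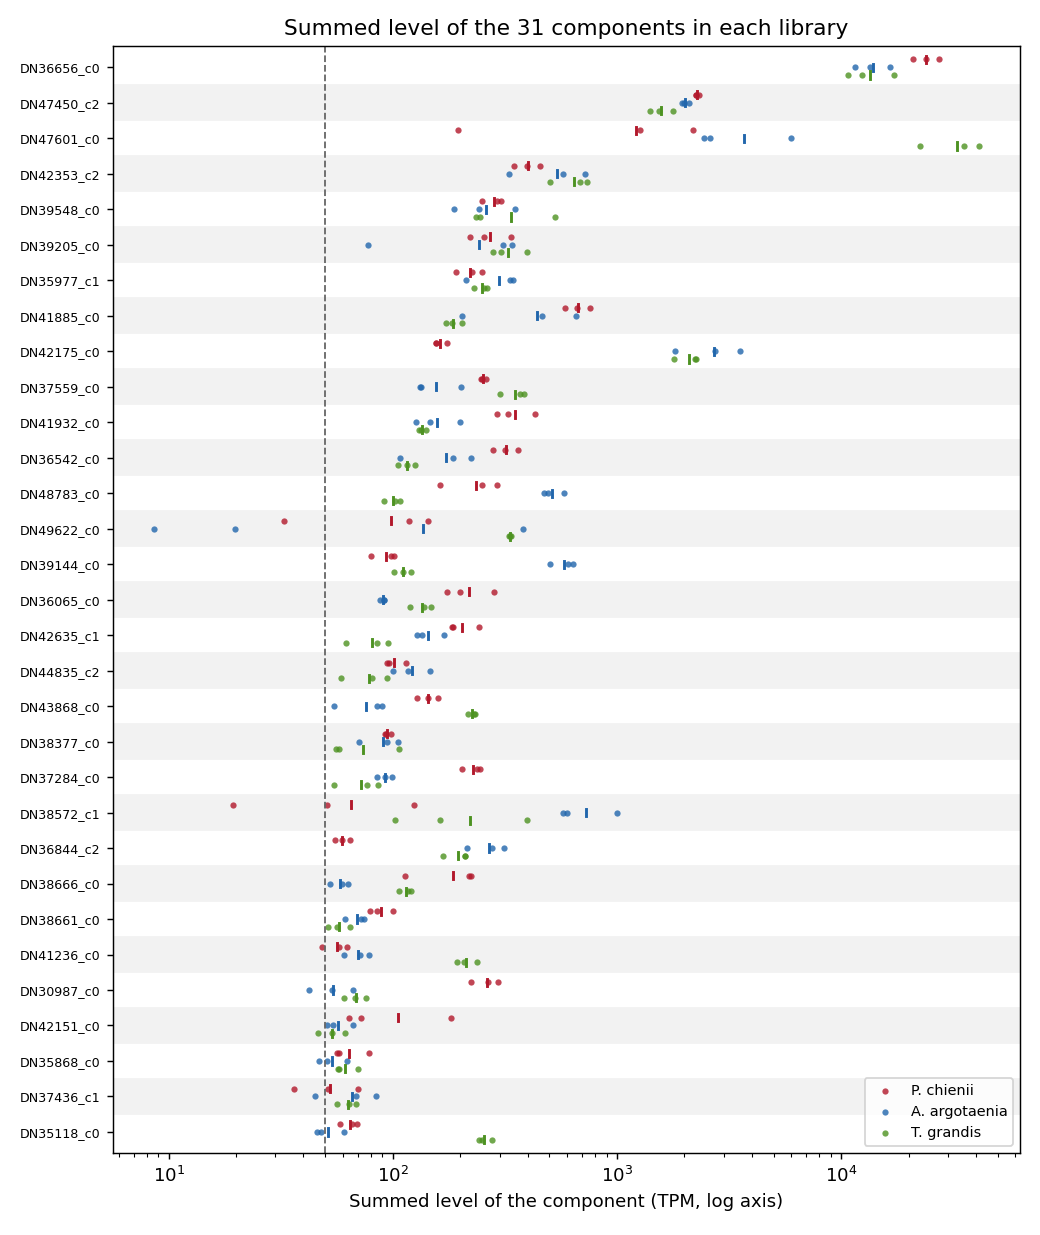
Points give the summed level in TPM (log x axis) of each of the 31 components (y axis, IDs without the prefix TRINITY_) in each of the 9 libraries, coloured by species, with a tick at each species mean and a dashed line at the floor of 50 TPM. TRINITY_DN36656_c0 and the T. grandis libraries of TRINITY_DN47601_c0 are the highest, at 10788 TPM or more, while 18 components are under 100 TPM in the mean of some species.

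Together the components made up 3.29% ± 0.434 of the TPM for P. chienii, 2.78% ± 0.196 for A. argotaenia and 5.51% ± 1.21 for T. grandis (SD, n = 3 libraries each). The totals were 28556, 32904 and 37241 TPM in P. chienii, 29924, 27585 and 26029 TPM in the A. argotaenia libraries and 62794, 61279 and 41134 TPM in those of T. grandis. The T. grandis libraries were the highest, and 2 components carried most of the total in every species. Without TRINITY_DN36656_c0 and TRINITY_DN47601_c0 the totals were 7636 ± 140 TPM in P. chienii, 10315 ± 589 TPM in the A. argotaenia libraries and 8532 ± 644 TPM in those of T. grandis. Replicates of the sums spread by a median coefficient of variation of 12.9% for P. chienii, 19.7% for A. argotaenia and 12.1% for T. grandis, against 11.4%, 14.5% and 9.90% for all components at the floor. In bulk tissue, fewer cells of a type and less RNA per cell cannot be told apart.

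The most abundant of the 31 was TRINITY_DN36656_c0, with 20862, 24002 and 27287 TPM in P. chienii, 16471, 11598 and 13504 TPM in the A. argotaenia libraries and 12392, 17244 and 10788 TPM in those of T. grandis. Every P. chienii library was above every other library, yet the sum did not pass the test against A. argotaenia, where it differed by 0.80 ± 0.34 (log2 fold change with its SE; limma adjusted p = 0.0710), or against T. grandis, where it differed by 0.86 ± 0.34 (limma adjusted p = 0.0615). Without T. grandis replicate 2 the value against T. grandis was 1.05 and passed (limma adjusted p = 0.0290). The leaders behind these sums are g1, g2 and g7 of 10 features, and each was between 6.57 and 95.9 TPM in the libraries of the other species. TRINITY_DN47450_c2 varied less, with 2251, 2330 and 2263 TPM in P. chienii, 2106, 1998 and 1957 TPM in the A. argotaenia libraries and 1789, 1544 and 1405 TPM in those of T. grandis. Its leaders g5, g3 and g4 held 98.0%, 98.1% and 96.8%. The log2 difference of its sum was 0.18 ± 0.16 for P. chienii against A. argotaenia (limma adjusted p = 0.389) and 0.54 ± 0.16 against T. grandis (limma adjusted p = 0.0167), under the 2-fold that a call required.

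**Figure D5:**
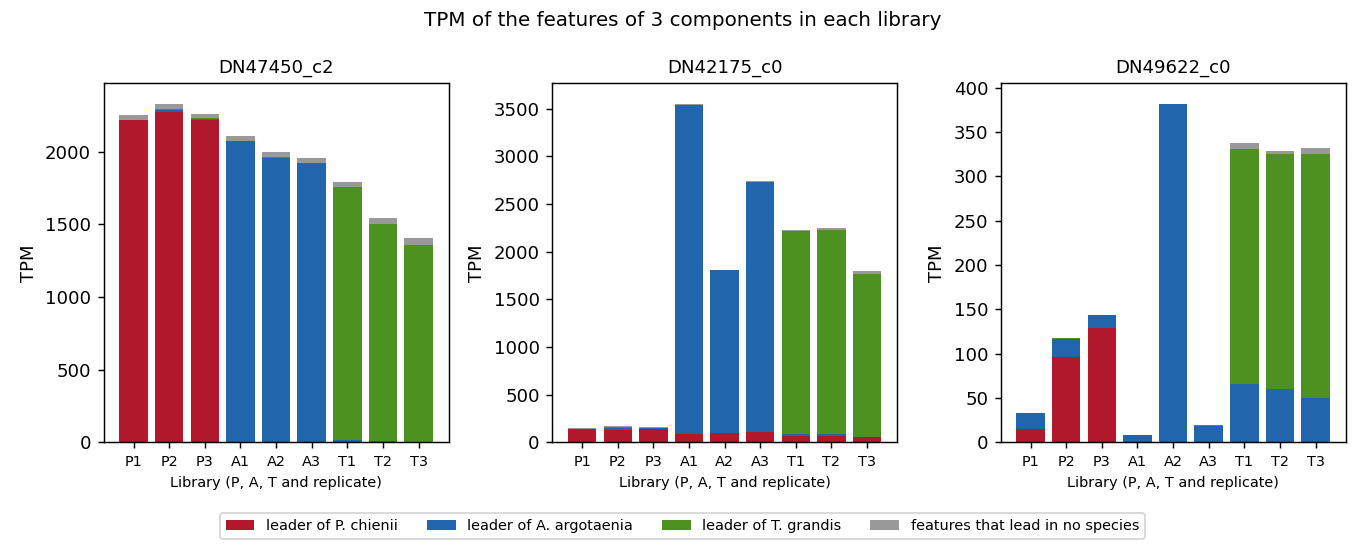
Stacked bars give the TPM of the leaders of each species and of the other features in each library (P for P. chienii, A for A. argotaenia, T for T. grandis, with the replicate number) for TRINITY_DN47450_c2, TRINITY_DN42175_c0 and TRINITY_DN49622_c0, whose titles leave off the prefix; each y axis has its own scale from 0. The first sums to between 1405 and 2330 TPM in all libraries under 3 leaders, the second is at 156 to 175 TPM in P. chienii against 1795 to 3550.0 TPM in the other libraries, and the third has 382 TPM in A. argotaenia replicate 2 against 8.60 and 19.9 TPM in the others of that species.

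The smallest differences between species were those of TRINITY_DN35868_c0, whose highest species mean was 1.20 times the lowest. It had 56.4, 57.5 and 78.4 TPM in P. chienii, 47.1, 62.6 and 50.9 TPM in the A. argotaenia libraries and 56.9, 70.0 and 57.4 TPM in those of T. grandis. All 3 groups of libraries overlapped, while g2, g3 and g1 each held 99.5% in the species they lead. TRINITY_DN37436_c1 had a ratio of 1.26, with 69.7, 51.3 and 36.1 TPM in P. chienii, 45.1, 84.3 and 68.5 TPM in the A. argotaenia libraries and 63.7, 56.6 and 68.6 TPM in those of T. grandis, and its groups overlapped too.

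Summed levels were tested between species with limma over 39423 components. A component was called where its adjusted p was under 0.05 and its change was 2-fold or more. Log2 differences are fold changes of the sum on the log2(TPM + 1) scale, each with its SE. All 31 components passed the filter on low values, which their floor guarantees. In P. chienii against A. argotaenia 10 of the 31 (32.3%) were called, 5 higher and 5 lower in P. chienii. Of all components tested 53.7% were called, 25.7% higher and 28.1% lower, and of components at the same floor 31.1%, 17.1% higher and 14.0% lower. The share of the 31 thus lay near that of components of like abundance. Their median log2 fold change, taken from means of log2 values over libraries, was 0.33, against 0.09 for components at the floor; after trimmed-mean scaling these were 0.21 and -0.03. No overlap between the libraries of P. chienii and A. argotaenia was seen in 18 of the 31 (58.1%), in 65.4% of all components tested and in 66.3% of those at the floor.

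TRINITY_DN30987_c0, a component of 3 features, had 296, 224 and 267 TPM in P. chienii against 42.5, 66.5 and 53.5 TPM in A. argotaenia. It rose in P. chienii with a log2 difference of 2.27 ± 0.18 (limma adjusted p = 8.12e-06). The P. chienii libraries were all far above the others, and the leaders g2 and g1 held 99.8% and 99.2%. TRINITY_DN38666_c0, also of 3 features, had 113, 224 and 219 TPM in P. chienii against 63.2, 59.6 and 52.3 TPM in A. argotaenia, a log2 difference of 1.59 ± 0.25 (limma adjusted p = 0.000468). P. chienii replicate 1 was the lowest of its group but above every A. argotaenia library.

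TRINITY_DN42175_c0, of 10 features, fell to 156, 175 and 156 TPM in P. chienii, against 3550.0, 1810.3 and 2739 TPM in A. argotaenia. The log2 difference was -4.00 ± 0.24 (limma adjusted p = 1.64e-06). Its P. chienii leader was the one that was also abundant elsewhere, as described above. TRINITY_DN38572_c1 fell to 19.3, 124 and 50.8 TPM in P. chienii, against 577, 1005 and 597 TPM in A. argotaenia, for a log2 difference of -3.79 ± 0.69 (limma adjusted p = 0.00119). The groups did not overlap, but P. chienii replicates 1 and 2 set the size: the log2 difference was -3.13 without replicate 1 and -4.44 without replicate 2.

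In P. chienii against T. grandis 13 of the 31 (41.9%) were called, 7 higher (22.6%) and 6 lower (19.4%) in P. chienii. Of all components tested 48.4% were called, 26.5% higher and 21.9% lower, and of those at the floor 33.2%, 16.3% higher and 16.8% lower. The median log2 fold change was 0.05, against -0.06 at the floor, and after trimmed-mean scaling these were -0.03 and -0.14. The libraries did not overlap in 21 of the 31 (67.7%), in 61.1% of all components tested and in 74.4% at the floor. The 3 P. chienii libraries enter this comparison and the one above, so the calls of both are not independent.

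TRINITY_DN30987_c0, whose P. chienii values are given above, had 75.8, 68.2 and 60.8 TPM in T. grandis and rose in P. chienii by a log2 difference of 1.92 ± 0.18 (limma adjusted p = 2.48e-05). TRINITY_DN41885_c0 had 757, 587 and 665 TPM in P. chienii against 203, 173 and 183 TPM in T. grandis, a log2 difference of 1.83 ± 0.37 (limma adjusted p = 0.00243). Its A. argotaenia libraries spread from 203 to 654 TPM, and its leaders g1 and g2 held 99.7% in P. chienii and 96.3% in T. grandis.

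TRINITY_DN47601_c0, of 7 features, fell to 195, 1272 and 2176 TPM in P. chienii, against 41352, 35301 and 22535 TPM in T. grandis. The log2 difference was -5.30 ± 0.83 (limma adjusted p = 0.000533), and -4.27 without P. chienii replicate 1 or -6.00 without P. chienii replicate 3. Its leader shares were among the less even, at 79.6%, 79.0% and 93.4% in the P. chienii libraries, while g2 held 99.7% in T. grandis. TRINITY_DN42175_c0 fell against T. grandis as well, where it had 2229, 2244 and 1795 TPM, with a log2 difference of -3.67 ± 0.24 (limma adjusted p = 2.67e-06).

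In A. argotaenia against T. grandis 9 of the 31 (29.0%) were called, 4 higher and 5 lower in A. argotaenia. Of all components tested 42.3% were called, 24.8% higher and 17.5% lower, and of those at the floor 28.3%, 11.2% higher and 17.1% lower. The median log2 fold change was 0.09, against -0.10 at the floor. After trimmed-mean scaling these were 0.12 and -0.06, and after quantile normalization 0.13 and 0.01. The libraries did not overlap in 14 of the 31 (45.2%), in 54.4% of all components tested and in 66.9% at the floor.

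TRINITY_DN39144_c0, with 11 features the largest of the components, had 505, 639 and 602 TPM in A. argotaenia against 120.2, 111 and 101 TPM in T. grandis. It rose in A. argotaenia by a log2 difference of 2.38 ± 0.14 (limma adjusted p = 3.16e-06), and its P. chienii libraries, at 80.3, 102 and 98.3 TPM, were close to those of T. grandis. TRINITY_DN48783_c0 had 582, 474 and 492 TPM in A. argotaenia against 108, 103 and 91.2 TPM in T. grandis, a log2 difference of 2.34 ± 0.21 (limma adjusted p = 2.58e-05). In both components the A. argotaenia libraries were well apart from the T. grandis libraries.

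TRINITY_DN35118_c0 fell to 47.8, 60.8 and 46.1 TPM in A. argotaenia, against 277, 242 and 249 TPM in T. grandis, for a log2 difference of -2.30 ± 0.14 (limma adjusted p = 3.09e-06). It is also the component nearest above the floor, with a mean of 51.6 TPM in A. argotaenia, and its 3 leaders held 98.6% or more in every species. TRINITY_DN47601_c0 fell to 2459, 5970 and 2591 TPM in A. argotaenia, against the T. grandis values above, with a log2 difference of -3.25 ± 0.83 (limma adjusted p = 0.00990). Against A. argotaenia its P. chienii sum did not pass the test, with a log2 difference of -2.04 ± 0.83 (limma adjusted p = 0.0600). It passed without P. chienii replicate 3, at -2.75 (limma adjusted p = 0.0230), and was -1.02 without P. chienii replicate 1.

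Over the 3 comparisons, 13 of the 31 components were called in none, 6 in 1, 10 in 2 and 2 in all 3. P. chienii was higher than both other species in 3 components and lower than both in 3. A. argotaenia was higher than both in 3 and lower than both in 0, and T. grandis higher in 3 and lower in 2. The same counts were not made for all components or for those at the floor, so they describe the 31 alone. Of the calls, 8 of 10, 12 of 13 and 7 of 9 held without each library in turn, in the order of the comparisons above. Those lost in P. chienii against A. argotaenia were TRINITY_DN48783_c0 without P. chienii replicate 1, at a log2 difference of -0.92, and TRINITY_DN41932_c0 without P. chienii replicate 3, at 0.99, both short of 2-fold. TRINITY_DN38572_c1 was lost in P. chienii against T. grandis without any 1 of 6 of the 9 libraries, P. chienii replicates 1 and 3, A. argotaenia replicates 1 and 3 and T. grandis replicates 1 and 2, at log2 differences from -1.23 to -1.99 (limma adjusted p = 0.0532 to 0.153). In A. argotaenia against T. grandis it was lost without any 1 of 6, P. chienii replicate 3, any A. argotaenia replicate and T. grandis replicates 2 and 3, at 1.46 to 2.04 (limma adjusted p = 0.0573 to 0.151). TRINITY_DN41885_c0 was lost in A. argotaenia against T. grandis without any 1 of 5, A. argotaenia replicates 1 and 2 and any T. grandis replicate, at 0.72 to 1.15 (limma adjusted p = 0.0721 to 0.123). These components were singled out here after their values were seen.

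TRINITY_DN49622_c0 was the component that depended most on single libraries. It summed to 32.9, 118 and 144 TPM in P. chienii, 8.60, 382 and 19.9 TPM in the A. argotaenia libraries and 338, 329 and 332 TPM in those of T. grandis. The A. argotaenia mean passed the floor through replicate 2 alone, and in P. chienii replicate 1 the A. argotaenia leader held 54.7% of the sum and the P. chienii leader 45.3%. With all libraries it was called in no comparison: the log2 difference of A. argotaenia against T. grandis was -2.98 ± 1.22 (limma adjusted p = 0.0747). Without A. argotaenia replicate 2 that value was -4.56 (limma adjusted p = 0.000699), and that of P. chienii against A. argotaenia was 2.56 (limma adjusted p = 0.00795), against 0.98 with all libraries.

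That component and TRINITY_DN41236_c0 were the nearest inside the share limit, with leaders at 80.6% in T. grandis for the first and 80.6% in P. chienii for the second. TRINITY_DN45477_c0, at 77.8% in T. grandis, and TRINITY_DN34296_c0, at 77.8% in A. argotaenia, lay just outside. At the floor, TRINITY_DN35118_c0 and TRINITY_DN37436_c1 were just inside with lowest species means of 51.6 and 52.4 TPM, and TRINITY_DN35717_c1 and TRINITY_DN38802_c0 just outside with 49.9 and 49.2 TPM, both in T. grandis. The rule was met in every single library by 20 of the 31 components, and 23 stayed chosen whichever library was left out.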

How the data were processed

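The deposited values, which the authors gave in 1 table per library with 2 decimals, were taken as TPM. The file headers name no unit, and TPM was read from the totals per library. Those totals do not show whether the values were divided by feature length. Trinity is named per the labels; for its input, the quantifier, versions and filters nothing is given in the sources used here. TPM keeps no depth, so the reads behind a value are unknown and no counting interval is given. Features were summed per component (ID without the g number), and species means chose the components. Members, lists and tests were chosen with earlier results of these data known. Tests were made with limma 3.58.1 (R 4.3.3) on log2(sum + 1), allowing an intensity trend, with a term for species and all 9 libraries in 1 fit. Components with 1 TPM or more in 3 or more libraries entered, and p-values were two-sided and adjusted by Benjamini and Hochberg over all of them. Fold changes on this scale understate those of low components. The step was tested on simulated data. Tables were made in Python 3.11.15 with pandas 2.3.3 and numpy 2.4.6, and figures with matplotlib 3.10.9.

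Named are, per comparison, the 2 largest rises and 2 largest falls among called components, the 3 with the highest lowest-species sum, the 2 with the smallest ratio between species, those next to each limit, and the 2 with the highest share on non-leading features; exceptions are named as such. Alternatives were other pseudocounts (0.1 and 5), leaving out the filter, requiring a mean of 5 TPM, quantile normalization, trimmed-mean scaling (30% trim of log ratios to the mean library, computed directly since count-based factors do not apply to TPM), no trend, the replicate number as a block, only the species compared, no minimum fold, leaders alone in place of sums, each library left out, and 3 libraries left out together; for the choice, other limits, medians and every library. The count of components without the 3 libraries was added after seeing the data. No sequence was used here.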

Additional observations from a re-analysis of the deposited data

How the results depend on the processing

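The choice limits set the number of components: it was 45, 21 and 15 with a share of at least 70%, 90% and 95%, 68 and 13 with a floor of 20 and 100 TPM, 29 with medians, and 20 with the rule met in every library. At floors of 20 and 100 TPM, 1508 and 257 components had 1 leader, 391 and 94 had 2, and 68 and 13 had 3. Leaving out 1 library gave 27 to 32 components, 10 to 12 calls in P. chienii against A. argotaenia, 12 to 14 in P. chienii against T. grandis and 7 to 9 in A. argotaenia against T. grandis. Over all 21 alternatives these calls numbered 10 to 13, 12 to 17 and 7 to 13. Of 1953 values of single components under an alternative, 1884 stayed on their side of the threshold, 37 became calls, 32 were lost and 0 of the called values turned sign. Without P. chienii replicate 1, A. argotaenia replicate 2 and T. grandis replicate 3, the calls were 10, 14 and 9, and 27 components met the rule, 24 of them among the 31. The replicate number as a block gave 10, 12 and 8 calls. Samples with the same number correlated in their deviations at -0.36 to 0.24, over 0.1 in 3 of 9 pairs. No label states what the number stands for, and whether samples with the same number share a preparation was not tested. The highest correlations were between P. chienii replicate 1 and A. argotaenia replicate 2 (0.37), P. chienii replicate 1 and T. grandis replicate 3 (0.48) and A. argotaenia replicate 2 and T. grandis replicate 3 (0.39), the 3 libraries left out together above. A block by replicate number does not pair these libraries, and whether they share a condition was not tested. The calls lost under alternatives that kept all libraries belonged to TRINITY_DN38572_c1 and TRINITY_DN41885_c0, and the cause was not tested. Over all components, 21186, 19081 and 16671 calls became 13960, 12695 and 9978 with a pseudocount of 5, 10729, 10353 and 8352 with a mean of at least 5 TPM, which tests fewer components, and 11991, 11642 and 10567 without the 3 libraries. Trimmed-mean scaling moved the median of components at the floor to -0.03, against 0.09 unscaled, in P. chienii against A. argotaenia, and that of the 31 to 0.21, against 0.33. The unknown depth leaves the counting error of components near the floor unmeasured.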
